A study of Mus musculus with 6 samples.

Results

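Blood clotting and clot removal rest on a group of plasma proteins, most of which are made by hepatocytes, and 34 genes of this group were followed in primary hepatocytes of alcohol-fed mice. They were chosen by name, as the coagulation factors, their cofactors and inhibitors, the contact system, the fibrinolytic enzymes with their inhibitors and receptor, and a thrombin receptor. The choice was made with earlier results of these data known, so shares set beside those of all genes only describe the list. Of the 34 genes, 33 were among the 25718 genes listed, and Serpina5 was not analysed here. RNA was sequenced from hepatocytes of WT mice (3 libraries) and of S100a16KO+/- mice (3 libraries), and the comparison asks which of these transcripts differ when 1 copy of S100a16, which encodes a small calcium-binding protein, is lost in alcohol-fed animals.

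All mice were males of 8 to 10 weeks on a C57BL/6 background. Both genotypes received the same regimen, namely 5 days of control liquid diet, 10 days of liquid diet with 5% ethanol, and a single gavage of ethanol at 5 g/kg with collection 9 h later. No library came from mice without ethanol, so no value here is an effect of alcohol. S100a16KO+/- mice carry a deletion made with EIIa-Cre, a Cre that acts in the early embryo, so it was not directed at hepatocytes alone. Whether every cell type of the animal was heterozygous was not measured here. They were used as heterozygotes because homozygous loss was lethal per the study's methods, and the sample labels call the same group a knockdown. The cells were obtained by collagenase perfusion and Percoll separation. Whether the sequenced cells were kept in culture before RNA extraction is not stated. Whether each library came from a separate mouse is not stated beyond the group size, so the p values measure the spread between these libraries, part of which may be technical.

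In the clotting cascade, inactive serine protease precursors in plasma are cleaved and activated one after another. It starts from tissue factor at the surface of injured tissue, or from the contact system, and ends with thrombin, which cuts fibrinogen into fibrin. Several of the precursors need vitamin K-dependent carboxylation in the endoplasmic reticulum before they are secreted. Antithrombin, the protein C pathway and tissue factor pathway inhibitor restrain the cascade, and plasmin, made from plasminogen, dissolves fibrin. The liver makes most of these proteins, while von Willebrand factor, factor VIII, thrombomodulin and tissue plasminogen activator come mainly from endothelial cells.

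Library depth was even, with 67658095 to 71807834 estimated counts in each, where about 4 counts stand for 1 sequenced fragment. S100a16 had FPKM values (fragment levels scaled for transcript length and library size) of 7.67, 8.55 and 9.07 in WT. In S100a16KO+/- hepatocytes they were 3.52, 3.17 and 2.92. The log2 fold change was -1.40 ± 0.11 (SE, adjusted p = 4.14e-07 in edgeR), so the targeted gene fitted the labels in direction. The change was -62.0%, with a confidence interval from -67.8% to -55.3%. Whether a fall of this size fits the loss of 1 copy was not tested. The 8 hepatocyte markers, led by Alb and Apoa1, summed to 46596 to 47799 FPKM in WT and to 46083 to 47027 FPKM in S100a16KO+/- libraries, and 1 of 8 rose (Tat) and 2 fell (Ttr and Cyp3a11). Red blood cell markers summed to 261 to 288 FPKM in WT and to 25.2 to 26.2 FPKM in S100a16KO+/- libraries, and 5 of 5 fell. WT replicate 1 and S100a16KO+/- replicate 2 stood apart from the other 4 libraries on the second principal component, which held 12.8% of the variance. Without both of them 19 of the 20 rises and the 1 fall described below were still called.

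Of the 33 genes, 31 had enough counts to be tested. Transcripts for 20 of the 31 rose in S100a16KO+/- hepatocytes and 1 fell, while 10 did not pass an adjusted p of 0.05 in edgeR's quasi-likelihood test. Over all 15957 tested genes, 11.6% were called higher and 11.2% lower. The tested clotting genes had a median log2 fold change of 0.25, a rise of 18.5%, whereas the median over all tested genes was 0.006. The fold change was above 0 for 28 of the 31. The 3 FPKM values of S100a16KO+/- all lay above those of WT for 23 genes and all below for 1 gene, compared with 18.7% and 15.8% of all tested genes. Vwf was the only called rise of at least 2-fold. With Plaur, which did not pass the adjusted test, and F3, which fell, 3 genes met an unadjusted p under 0.05 with a change of at least 2-fold, a limit that 4.52% of all tested genes met in either direction.

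Abundant genes were called more often in both directions, so the 21 clotting genes that averaged 100 CPM or more (counts scaled to a common library size) were also set against the 967 genes at that level. Of the 21, 15 rose and none fell in edgeR's test (2 of the 21 had a log2 fold change below 0, and neither had an unadjusted p under 0.05), against 27.4% higher and 27% lower among the 967. Of the other 10 tested genes, 5 rose and 1 fell. The share of all counts taken by the 33 genes was 2.34% to 2.41% in WT and 2.90% to 3.01% in S100a16KO+/- libraries.

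**Figure D1:**
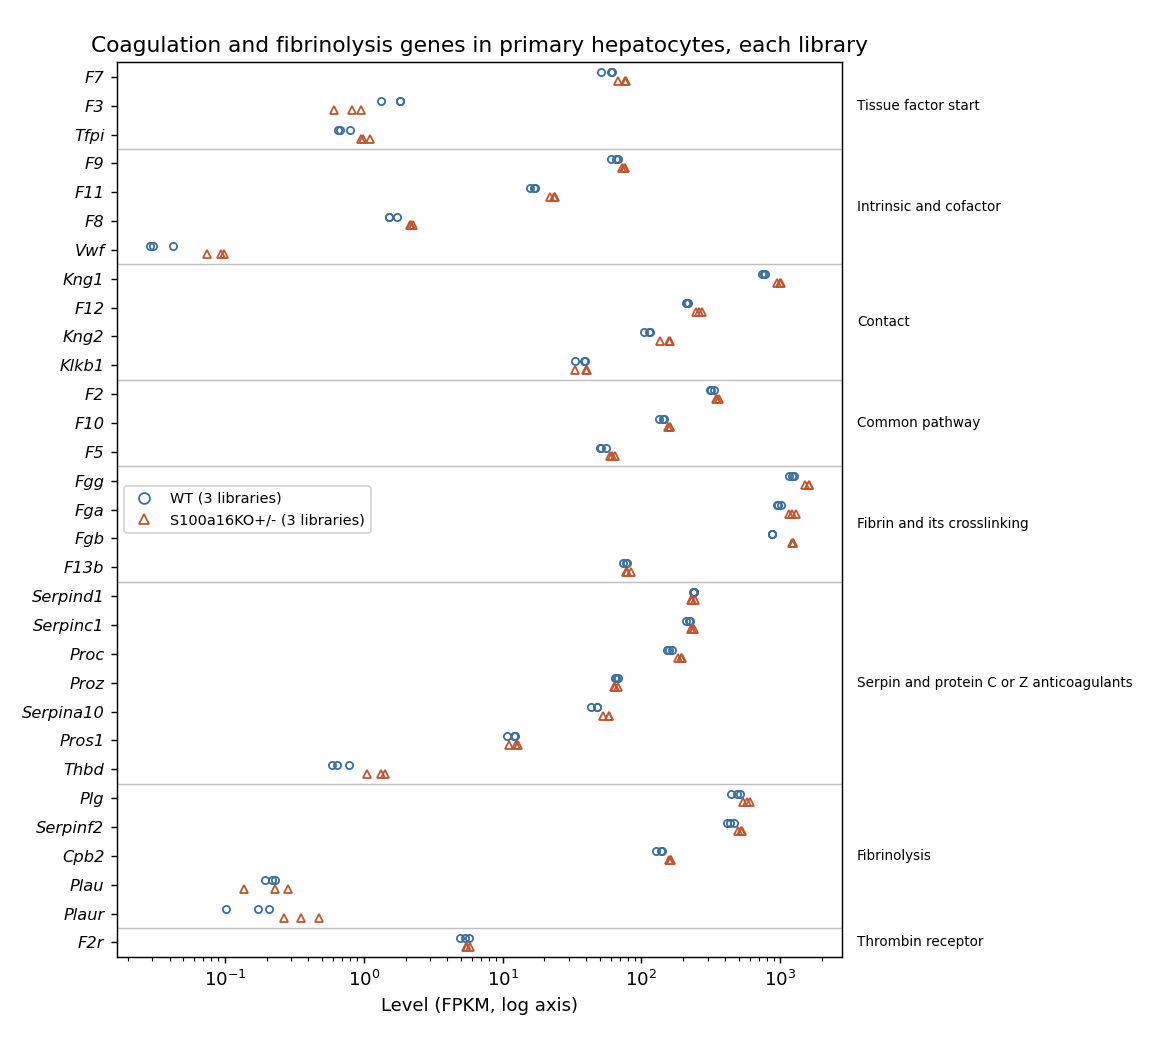
FPKM (horizontal log axis) of the 31 tested clotting genes in each of 3 WT (circles) and 3 S100a16KO+/- libraries (triangles), grouped by role. Levels run from 0.0289 FPKM for Vwf to 1620 FPKM for Fgg, and the triangles lie to the right of the circles for 23 genes and to the left for F3.

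The order of the levels was nearly the same in both genotypes. In WT hepatocytes Fgg, Fga, Fgb and Kng1 were the highest, at means of 1209, 978, 868 and 759 FPKM, and none of these overlapped its neighbour in the order. Plg and Serpinf2 followed at 482 and 435 FPKM and overlapped. Serpinc1 overlapped F12, and F10 overlapped Cpb2. Proz, F9, F7 and F5 formed a run of overlapping neighbours between 65.9 and 52.3 FPKM. At the other end lay F3 and F8 at 1.66 and 1.59 FPKM, Tfpi and Thbd at 0.709 and 0.671 FPKM, and Plau, Plaur and Vwf under 0.3 FPKM in every WT library. In S100a16KO+/- hepatocytes Fgb overlapped Fga, F12 lay above Serpind1 and Serpinc1, and F3 had a lower mean than Thbd and Tfpi but overlapped Tfpi.

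Fibrinogen, the soluble precursor of fibrin, is built from Aα, Bβ and γ chains encoded by Fga, Fgb and Fgg. They lie together on chromosome 3 (GRCm38), with 11026 bases between Fgg and Fga and 6513 bases between Fga and Fgb, and Fgb is read from the opposite strand. All 3 rose. Because they moved together, and because the C/EBP and interleukin 6 response motifs of fibrinogen promoters are well studied, the bases just before their starts are shown. They are taken from the RefSeq promoter table (GRCm38.p6) and written 5′ to 3′ on the strand of the gene, with capitals marking matches to TTGCNNAA, a C/EBP motif, and CTGGGA, the core of the interleukin 6 response motif, on either strand. The Fga stretch ends at the gene start given with the counts, which lies before the RefSeq start.
Fga, chr3:83025953-83026075, plus strand: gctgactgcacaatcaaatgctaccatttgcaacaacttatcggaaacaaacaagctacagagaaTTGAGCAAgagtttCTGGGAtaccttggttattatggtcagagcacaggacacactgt
Fgb, chr3:83049864-83050063, minus strand: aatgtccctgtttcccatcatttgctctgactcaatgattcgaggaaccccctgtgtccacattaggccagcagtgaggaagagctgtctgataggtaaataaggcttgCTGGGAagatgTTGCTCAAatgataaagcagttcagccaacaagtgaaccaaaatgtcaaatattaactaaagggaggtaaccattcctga
Fgg, chr3:83007524-83007723, plus strand: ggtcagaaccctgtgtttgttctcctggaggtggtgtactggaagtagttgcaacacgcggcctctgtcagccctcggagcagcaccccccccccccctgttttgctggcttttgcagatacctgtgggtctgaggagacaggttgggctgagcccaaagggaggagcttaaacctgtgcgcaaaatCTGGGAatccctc

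Counted back from the RefSeq start, Fga held TTGAGCAA, the reverse strand form, from -135 to -128 and CTGGGA from -121 to -116. Fgb had the pair in the other order, with CTGGGA from -91 to -86 and TTGCTCAA from -80 to -73. In Fgg only CTGGGA was found, from -13 to -8. Within 250 bases before the start, on either strand, CTGGGA occurred in 11 of the 25 clotting genes for which the table holds a promoter and in 29.8% of all 27025 genes. Of the 14 risen genes among the 25, 6 held it. TTGCNNAA occurred in 7 of 25 (F11, F9, Fga, Fgb, Klkb1, Kng2 and Plaur) and in 10.8% of all genes, and these 7 included 5 genes that rose and 2, Klkb1 and Plaur, that were not called. AGGTCA, a nuclear receptor half-site, was in 7 of 25 and 15.8%. The endoplasmic reticulum stress element (CCAAT followed after 9 bases by CCACG) and TGACGTGG, an unfolded protein response element, were in none of the 25, against 0.13% and 0.603% of all genes. Such matches describe letters in these windows, not bound sites.

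Fgb (ENSMUSG00000033831), which encodes the Bβ chain, showed 867, 868 and 869 FPKM in WT replicates 1, 2 and 3, and 1233, 1240 and 1216 FPKM in S100a16KO+/- replicates 1, 2 and 3 (this order of replicates is kept throughout). The log2 fold change was 0.50 ± 0.05 (SE, adjusted p = 6.89e-06), a rise of 41.0%. On the FPKM scale the replicates were nearly level within each genotype. In CPM they spread more, at 3896, 3583 and 3647 in WT and 5142, 5575 and 4970 in S100a16KO+/- libraries. The groups were separate on both scales. Fgg (ENSMUSG00000033860) had 1159, 1218 and 1250 FPKM in WT and 1620, 1499 and 1613 FPKM in S100a16KO+/- hepatocytes, with a log2 fold change of 0.38 ± 0.04 (adjusted p = 1.24e-05). Fga (ENSMUSG00000028001) had 1017, 953 and 964 FPKM in WT and 1215, 1288 and 1164 FPKM in S100a16KO+/- hepatocytes, and rose by 0.32 ± 0.08 on the log2 scale (adjusted p = 0.0131). Neither gene overlapped between the genotypes.

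The fitted rise was largest for Fgb and smallest for Fga. Their 95% confidence intervals overlapped, at 30.6% to 52.2% for Fgb and 10.6% to 40.0% for Fga. The ratio of Fgb to Fga FPKM was 0.853, 0.911 and 0.902 in WT and 1.01, 0.963 and 1.04 in S100a16KO+/- libraries. This ratio was chosen after the values were seen and was not tested, and its groups did not overlap. The chains together took 0.972% to 0.986% of the counts in WT and 1.28% to 1.32% in S100a16KO+/- libraries. Factor XIII crosslinks fibrin, and neither of its subunit genes was called. F13b, the carrier subunit, had 74.2, 77.2 and 78.5 FPKM in WT and 84.5, 77.0 and 79.1 FPKM in S100a16KO+/- hepatocytes, which overlapped (log2 fold change 0.06 ± 0.05, adjusted p = 0.493). Its 95% confidence interval ran from -3.65% to 12.5%. F13a1, the catalytic subunit, which is made mainly outside hepatocytes, had 0, 8 and 7 counts in WT and 18, 0 and 16 counts in S100a16KO+/- libraries. All WT values lay under the 12 counts that a count of 0 allows, so it was not measurable there and no fold is given.

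**Figure D2:**
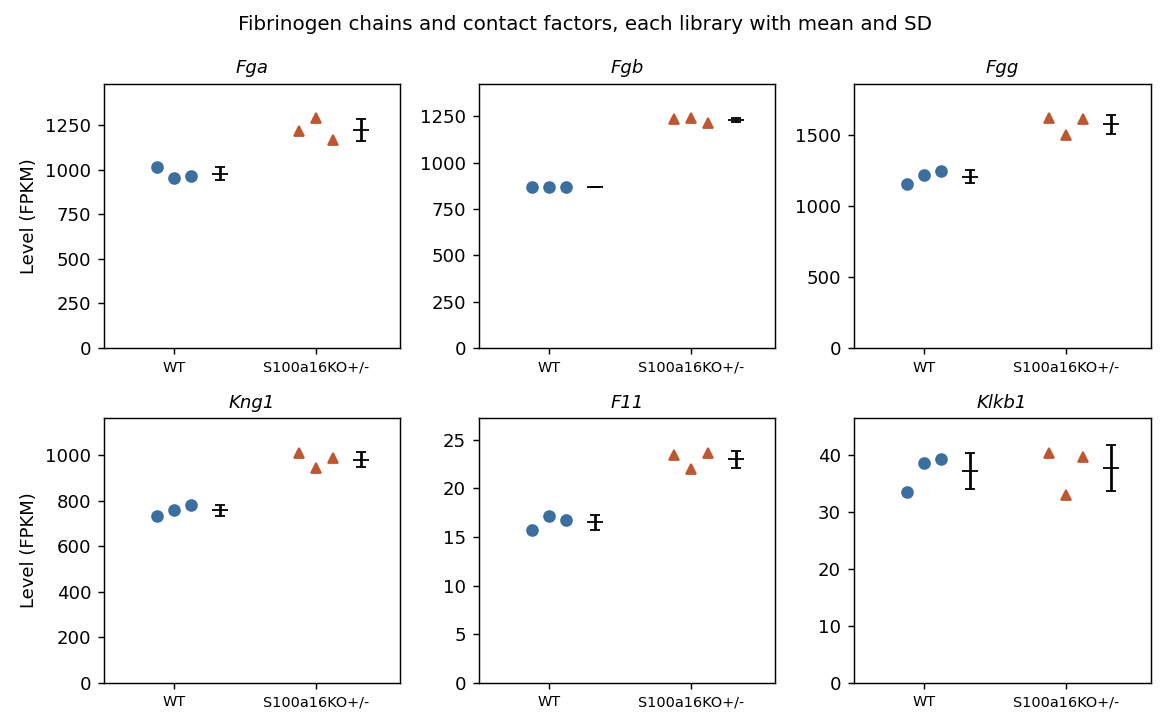
FPKM (vertical axes from 0) of the fibrinogen chain genes and of Kng1, F11 and Klkb1 in each library, with WT as circles, S100a16KO+/- as triangles and bars for the mean and SD of 3 libraries. The genotypes are separate in 5 panels and overlap for Klkb1, which lay between 33.0 and 40.3 FPKM throughout.

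Tissue factor, factor VII and their inhibitor start the cascade. F3 (ENSMUSG00000028128, chr3:121723537-121735048), the gene of tissue factor, was the only clotting gene that fell, and it did so from a low level. It had 1.34, 1.81 and 1.82 FPKM in WT and 0.953, 0.830 and 0.612 FPKM in S100a16KO+/- hepatocytes. No value of one genotype reached the other. The log2 fold change was -1.04 ± 0.20 (adjusted p = 0.00146), a level 51.5% lower with a 95% confidence interval from -63.9% to -34.9%. It passed in 6 of 6 comparisons that left out 1 library, with log2 fold changes from -1.18 to -0.86. F7, the protease precursor that tissue factor binds, had 51.3, 61.1 and 59.9 FPKM in WT and 76.6, 68.1 and 77.1 FPKM in S100a16KO+/- hepatocytes. It rose by 0.36 ± 0.05 (adjusted p = 0.000236), opposite to its partner F3. Tfpi, the inhibitor of both, had 0.653, 0.799 and 0.674 FPKM in WT and 0.949, 0.992 and 1.11 FPKM in S100a16KO+/- hepatocytes (log2 fold change 0.51 ± 0.14, adjusted p = 0.0143). Over the comparisons that left out 1 library each, the adjusted p of Tfpi ran from 0.0208 to 0.0615. It was above 0.05 without WT replicate 3 and without S100a16KO+/- replicate 3, and also without both libraries that stood apart (0.0632).

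In the intrinsic arm, factors XI, IX and VIII lead to factor X, and von Willebrand factor carries factor VIII in plasma. All 4 genes rose. F11 (ENSMUSG00000031645, chr8:45241174-45262031) had 15.7, 17.2 and 16.7 FPKM in WT and 23.4, 22.0 and 23.7 FPKM in S100a16KO+/- hepatocytes, a log2 fold change of 0.47 ± 0.05 (adjusted p = 1.55e-05). F9, which encodes the protease lacking in haemophilia B, had 60.8, 65.2 and 67.4 FPKM in WT and 75.9, 72.6 and 74.3 FPKM in S100a16KO+/- hepatocytes. The groups were separate, but the step was small (0.20 ± 0.05, adjusted p = 0.0118). The adjusted p of F9 ran from 0.0145 to 0.0620 when 1 library was left out and missed 0.05 without WT replicate 2.

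F8, the gene of the cofactor lacking in haemophilia A, had 1.51, 1.73 and 1.51 FPKM in WT and 2.20, 2.14 and 2.28 FPKM in S100a16KO+/- libraries (0.47 ± 0.08, adjusted p = 0.000475). Vwf (ENSMUSG00000001930) was near the limit of measurement, with 56, 36 and 39 counts in WT and 117, 92 and 124 counts in S100a16KO+/- libraries. Its FPKM was 0.0423, 0.0289 and 0.0306 in WT and 0.0941, 0.0749 and 0.0984 in S100a16KO+/- libraries. The groups were separate at both scales, with a log2 fold change of 1.35 ± 0.30 (adjusted p = 0.00418), or 2.54-fold with a confidence interval from 63.9% to 295% higher.

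Most endothelial markers moved in the same direction as Vwf, F8, Tfpi and Thbd, which are some of the clotting genes that endothelium expresses. F2r and Pros1, which endothelium also expresses, were not called in edgeR (log2 fold changes 0.07 and 0.05, adjusted p = 0.598 and 0.574). Plat, another such gene, was too low to be tested. Of 8 endothelial markers, 7 rose (Stab2, Kdr, Pecam1, Cdh5, Clec4g, Tek and Erg) and 1 fell (Lyve1), none was at 0 in all libraries, and their median log2 fold change was 0.49. Their summed level was 32.8 to 36.7 FPKM in WT and 47.9 to 49.6 FPKM in S100a16KO+/- libraries. Vwf, F8, Tfpi and Thbd moved with this list, and its part in their changes was not tested. In such bulk libraries more cells of a type and more RNA per cell cannot be told apart. Stellate cell and fibroblast markers summed to 4.95 to 5.07 FPKM in WT and 9.17 to 9.61 FPKM in S100a16KO+/- libraries, with 3 of 7 higher. Kupffer cell and macrophage markers summed to 45.2 to 55.6 FPKM and 52.3 to 59.9 FPKM, with 2 of 7 higher. Of 6 platelet and megakaryocyte markers, 5 were among the genes listed and 3 could be tested. None of the 3 passed edgeR's test (1 had non-overlapping higher FPKM values and 1 lower, and none had an unadjusted p under 0.05). The 5 summed to 0.347 to 0.507 FPKM in WT and 0.567 to 0.701 FPKM in S100a16KO+/- libraries. Their sums in CPM overlapped, at 1.65 to 2.67 in WT and 1.62 to 2.61 in S100a16KO+/- libraries. Ppbp was at 0 in the 3 WT libraries and at 0, 8 and 0 counts in the S100a16KO+/- libraries, under the limit of 12 counts.

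**Figure D3:**
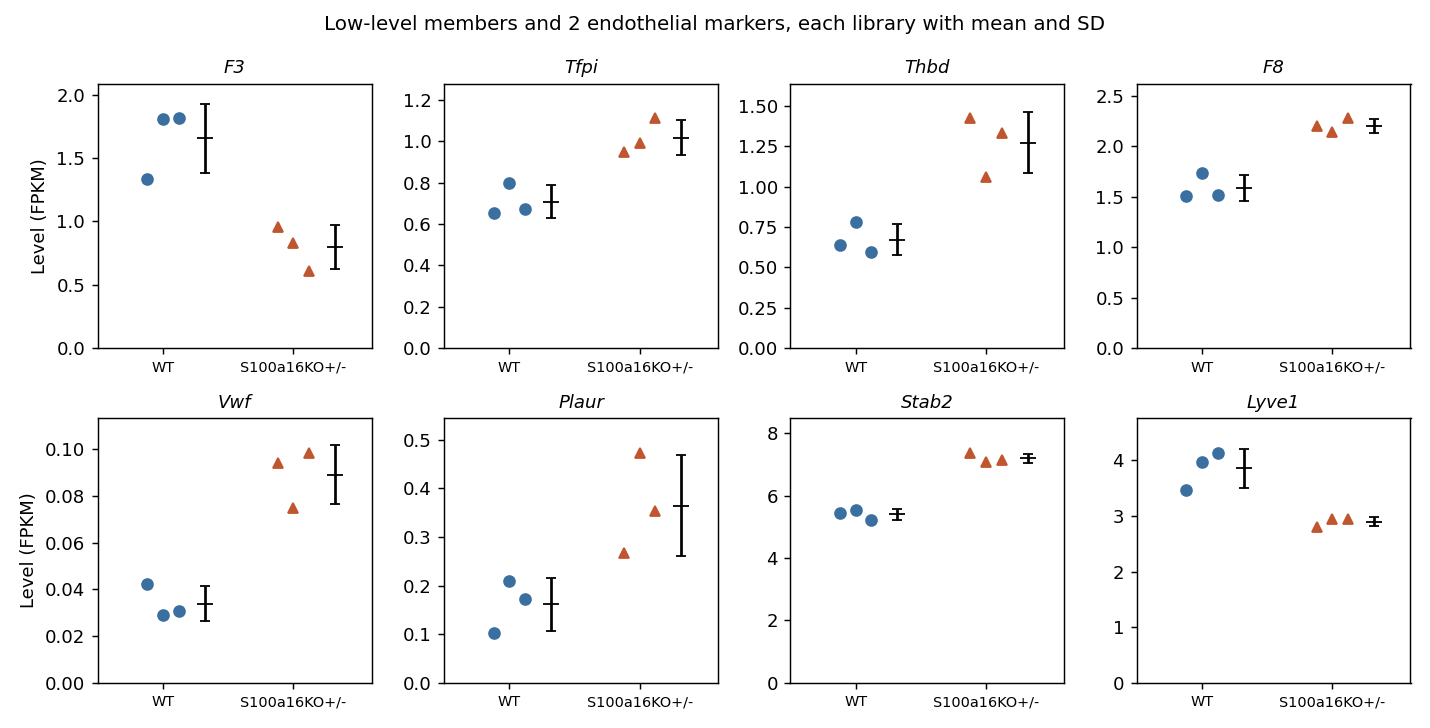
FPKM (vertical axes from 0) of clotting genes at low level and of the endothelial markers Stab2 and Lyve1 in each library, with WT as circles, S100a16KO+/- as triangles and bars for the mean and SD of 3 libraries. F3 and Lyve1 were lower in all S100a16KO+/- libraries, and Tfpi, Thbd, F8, Vwf, Plaur and Stab2 were higher, although Plaur did not pass the adjusted test.

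Contact factors activate factor XI and release bradykinin from kininogen. Kng1 (ENSMUSG00000022875) and Kng2 (ENSMUSG00000060459), the kininogen genes, rose. Kng1 had 734, 761 and 781 FPKM in WT and 1011, 945 and 988 FPKM in S100a16KO+/- hepatocytes (log2 fold change 0.36 ± 0.04, adjusted p = 2.48e-05). Kng2 had 104, 114 and 114 FPKM in WT and 160, 137 and 158 FPKM in S100a16KO+/- hepatocytes (0.45 ± 0.05, adjusted p = 1.09e-05). Both were separate between the genotypes. They lie 28382 bases apart on chromosome 16 and resemble each other: 26.5% of the 31-base words of Kng1 transcripts also occur in Kng2, and 30.6% the other way, so the split of reads between them is uncertain. F12, the gene of factor XII, had 212, 218 and 209 FPKM in WT and 261, 272 and 248 FPKM in S100a16KO+/- hepatocytes, and rose by 0.28 ± 0.06 (adjusted p = 0.00523).

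Klkb1, which encodes plasma prekallikrein, did not pass the test. It had 33.4, 38.6 and 39.2 FPKM in WT and 40.3, 33.0 and 39.6 FPKM in S100a16KO+/- hepatocytes, which overlapped. The log2 fold change was 0.01 ± 0.06 (adjusted p = 0.911), with a 95% confidence interval from -7.52% to 10.1%. Klkb1 and F11 are related genes read from the same strand with 4657 bases between them on chromosome 8. Their FPKM ratio, F11 over Klkb1, was 0.427 to 0.469 in WT and 0.581 to 0.667 in S100a16KO+/- libraries, a comparison chosen after the values were seen and not tested. Of the words of Klkb1 transcripts, 43.2% are shared with other genes, almost all with Gm45753, an overlapping gene model on the same strand that had 0 to 21 counts per library.

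The common pathway joins both arms at factor X, which with factor V turns prothrombin into thrombin. F5, the cofactor gene, had 50.1, 55.7 and 51.0 FPKM in WT and 64.1, 61.5 and 59.6 FPKM in S100a16KO+/- hepatocytes, a rise of 0.23 ± 0.06 (adjusted p = 0.00675). F10 had 133, 145 and 142 FPKM in WT and 159, 154 and 161 FPKM in S100a16KO+/- hepatocytes, a rise of 0.17 ± 0.05 (adjusted p = 0.0158). This small step depended on single libraries: with 1 library left out, the adjusted p of F10 ran from 0.0262 to 0.0714, and it missed 0.05 without WT replicate 2 and without WT replicate 3. F2, the prothrombin gene, had 313, 331 and 318 FPKM in WT and 364, 351 and 346 FPKM in S100a16KO+/- hepatocytes. Its groups did not overlap, but it did not pass the adjusted test (0.13 ± 0.05, adjusted p = 0.0632, 95% confidence interval from 2.08% to 18.0%). Without S100a16KO+/- replicate 3 the log2 fold change of F2 was 0.18 and it passed, within a range of adjusted p over the left-out libraries whose lowest value was 0.0273. The receptor through which thrombin acts on cells, F2r, had 4.91, 5.73 and 5.36 FPKM in WT and 5.83, 5.55 and 5.47 FPKM in S100a16KO+/- hepatocytes. These overlapped (0.07 ± 0.08, adjusted p = 0.598, 95% confidence interval from -6.61% to 18.1%).

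**Figure D4:**
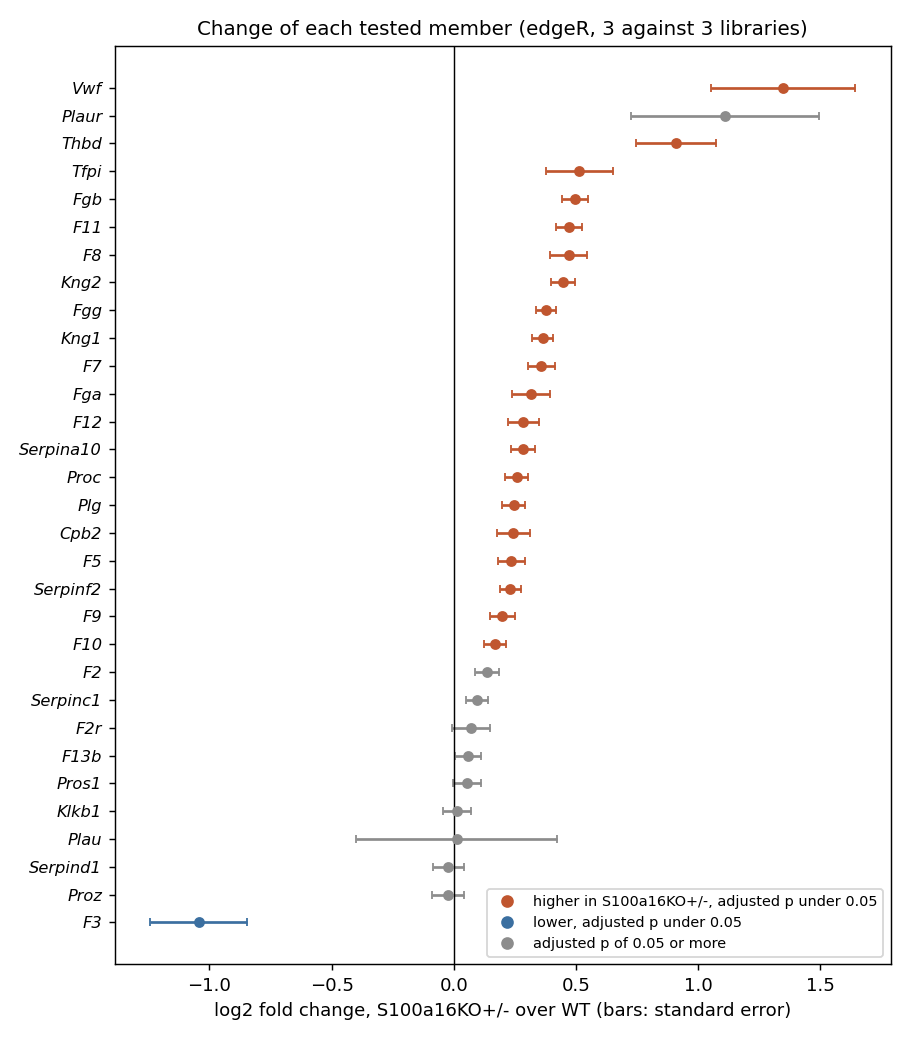
Log2 fold change of S100a16KO+/- over WT (horizontal axis, bars for the standard error) of the 31 tested clotting genes in edgeR, sorted by size and coloured by call. The estimates run from -1.04 for F3 to 1.35 for Vwf, and 20 genes are called higher and 1 lower.

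Of the 7 serpin and protein C or Z anticoagulant genes measured (Tfpi is given above), 3 rose and 4 did not pass the test. Serpina10, the gene of the protein Z-dependent inhibitor of factor Xa, had 43.1, 48.1 and 47.7 FPKM in WT and 58.2, 53.1 and 58.6 FPKM in S100a16KO+/- hepatocytes (0.28 ± 0.05, adjusted p = 0.000589). Proc, which encodes protein C, had 152, 166 and 158 FPKM in WT and 195, 183 and 194 FPKM in S100a16KO+/- hepatocytes (0.26 ± 0.05, adjusted p = 0.000833). Thbd (ENSMUSG00000074743), the gene of thrombomodulin, with which thrombin activates protein C, had 0.639, 0.781 and 0.594 FPKM in WT and 1.42, 1.06 and 1.33 FPKM in S100a16KO+/- libraries. Thbd rose by 0.91 ± 0.16 (adjusted p = 0.000941), and it was among the genes that moved with the endothelial markers.

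The other anticoagulant genes did not pass the test. Serpinc1, the gene of antithrombin, had 211, 221 and 223 FPKM in WT and 241, 229 and 233 FPKM in S100a16KO+/- hepatocytes, without overlap (0.10 ± 0.04, adjusted p = 0.152, 95% confidence interval from -0.0582% to 14.2%). Serpind1, the gene of heparin cofactor II, had 238, 234 and 240 FPKM in WT and 232, 245 and 227 FPKM in S100a16KO+/- hepatocytes (-0.02 ± 0.06, adjusted p = 0.852, interval from -10.4% to 8.20%). It lies within Pi4ka, which is read from the opposite strand. Pros1, the gene of protein S, the cofactor of activated protein C, had 10.8, 12.3 and 12.05 FPKM in WT and 12.99, 11.2 and 12.5 FPKM in S100a16KO+/- hepatocytes (0.05 ± 0.06, adjusted p = 0.574, interval from -4.61% to 12.9%). Proz, the gene of protein Z, had 67.7, 65.4 and 64.5 FPKM in WT and 64.4, 67.6 and 63.3 FPKM in S100a16KO+/- hepatocytes (-0.02 ± 0.07, adjusted p = 0.852, interval from -10.8% to 8.55%). For Serpind1, Pros1 and Proz the genotypes overlapped, and the intervals leave room for changes of several percent either way.

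Neighbouring genes differed in their calls, a difference that was not itself tested. F7, F10 and Proz follow one another on chromosome 8, with 1498 bases between F7 and F10 and 4237 bases between F10 and Proz, all on the same strand, and their log2 fold changes were 0.36, 0.17 and -0.02. These 3 genes belong to the vitamin K-dependent proteins, whose glutamate residues are carboxylated. Of the 7 such genes followed, 4 rose (F7, F9, F10 and Proc) and 3 were not called (F2, Pros1 and Proz), with a median log2 fold change of 0.17. The calls of F9 and F10 depended on single libraries. Over all tested genes 11.6% were called higher and 11.2% lower, and among those averaging 100 CPM or more 27.4% and 27%. Whether these 7 genes, or the other role groups above, differed from these shares was not tested.

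Fibrinolysis opposes the cascade. Plg (ENSMUSG00000059481), which encodes plasminogen, had 442, 515 and 488 FPKM in WT and 609, 537 and 575 FPKM in S100a16KO+/- hepatocytes, a rise of 0.25 ± 0.05 (adjusted p = 0.0015). Serpinf2, the gene of the plasmin inhibitor α2-antiplasmin, had 410, 460 and 433 FPKM in WT and 526, 494 and 517 FPKM in S100a16KO+/- hepatocytes, a rise of 0.23 ± 0.04 (adjusted p = 0.00155). The enzyme precursor and its inhibitor thus rose by close amounts, 18.5% and 17.4%. Cpb2, whose product protects fibrin from plasmin once activated by thrombin, had 138, 128 and 140 FPKM in WT and 159, 164 and 160 FPKM in S100a16KO+/- hepatocytes, a rise of 0.24 ± 0.07 (adjusted p = 0.0153). With 1 library left out its adjusted p ran from 0.00813 to 0.0908, and it missed 0.05 without WT replicate 2.

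The plasminogen activators were scarce in these cells. Plau, the gene of urokinase, had 42, 35 and 41 counts in WT and 52, 25 and 42 counts in S100a16KO+/- libraries, or 0.137 to 0.285 FPKM over all libraries, and the genotypes overlapped. Its 95% confidence interval, from -45.4% to 86.0%, shows that only a large change was detectable at this depth. Plat, the gene of tissue plasminogen activator, had 0, 0 and 16 counts in WT and 0, 7 and 0 counts in S100a16KO+/- libraries and was not tested. Plaur (ENSMUSG00000046223), the urokinase receptor, had 0.102, 0.209 and 0.173 FPKM in WT and 0.267, 0.473 and 0.353 FPKM in S100a16KO+/- libraries, with 23 to 96 counts. Its values did not overlap, but it missed the test (1.11 ± 0.38, adjusted p = 0.0520). It was called in 3 of 11 alternatives, those with DESeq2, with upper-quartile scaling and with counts divided by 4, and its adjusted p was highest, at 0.413, without both libraries that stood apart. It also passed without S100a16KO+/- replicate 1, where the adjusted p of 0.0441 was the lowest of the 6 comparisons with a library left out.

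The other genes of the pathway were followed as a list of 46, of which 41 were tested. Of these 12 rose, 8 fell and 21 were not called, with a median log2 fold change of 0.16. Over all 15957 tested genes 11.6% were called higher and 11.2% lower. Among the 967 tested genes that averaged 100 CPM or more these shares were 27.4% and 27%. Whether the list or its parts, given here and below, differed from these shares was not tested. Among the secreted and surface regulators 6 of 15 rose. Hrg, histidine-rich glycoprotein, which binds heparin and plasminogen, had 573, 564 and 544 FPKM in WT and 773, 829 and 710 FPKM in S100a16KO+/- hepatocytes (0.46 ± 0.09, adjusted p = 0.00434). Pzp, a broad protease inhibitor, had 403, 421 and 399 FPKM in WT and 518, 510 and 515 FPKM in S100a16KO+/- hepatocytes (0.33 ± 0.05, adjusted p = 0.00015). Both were separate between the genotypes. The fibrinogen-like gene Fgl1 (log2 fold change 0.37) and Vtn (0.21), which encodes vitronectin, also rose. So did Apoh (0.18), which encodes β2-glycoprotein I, and C4bp (0.17), which encodes a complement regulator. Tfpi2, a relative of Tfpi, fell by 0.35 on the log2 scale. The call of Apoh was lost without WT replicate 2 and without S100a16KO+/- replicate 1, where its log2 fold change was no lower than 0.15. C4bp lost its call without any of the 3 WT replicates and without S100a16KO+/- replicate 1, down to 0.13.

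Among genes that prepare clotting factors for secretion, 1 of 3 genes of the vitamin K cycle rose and 2 were not called, and of 6 genes of endoplasmic reticulum export and propeptide processing 1 rose, 2 fell and 3 were not called. Vkorc1, the vitamin K epoxide reductase that is the target of warfarin, had 119, 124 and 133 FPKM in WT and 148, 138 and 156 FPKM in S100a16KO+/- hepatocytes (0.23 ± 0.05, adjusted p = 0.00673). Ggcx, the carboxylase that uses its product, had 10.6, 12.98 and 11.6 FPKM in WT and 11.1, 12.2 and 12.7 FPKM in S100a16KO+/- hepatocytes, which overlapped (0.03 ± 0.07, adjusted p = 0.811, 95% confidence interval from -8.10% to 13.7%). Lman1 and Mcfd2 encode the receptor complex that exports factors V and VIII from the endoplasmic reticulum, and they parted. Lman1 had 21.05, 24.8 and 23.8 FPKM in WT and 32.3, 27.7 and 33.4 FPKM in S100a16KO+/- hepatocytes and rose by 0.42 ± 0.05 (adjusted p = 5.77e-05). Mcfd2 had 70.2, 78.5 and 79.8 FPKM in WT and 70.9, 62.6 and 70.0 FPKM in S100a16KO+/- hepatocytes, so that its FPKM values overlapped, and fell by 0.17 on the log2 scale (adjusted p = 0.0215). The call of Mcfd2 was lost without WT replicate 2 or 3 and without S100a16KO+/- replicate 3, and its adjusted p ran from 0.0284 to 0.107 over the 6 left-out libraries. Sec24a, a coat protein of export vesicles, fell by 0.40 (adjusted p = 6.37e-05).

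Of the 7 tested fibrinolysis inhibitors and plasminogen receptors, 2 fell and 5 were not called. The plasminogen receptor genes S100a10 and Eno1 fell by 0.26 and 0.14 on the log2 scale. Neither call was firm: S100a10 passed in 2 and Eno1 in 1 of the 6 comparisons that left out a library. S100a10 lost its call without WT replicate 1 or 3 and without S100a16KO+/- replicate 2 or 3, and Eno1 without any library but S100a16KO+/- replicate 2. The other protease-activated receptor genes, F2rl1, F2rl2 and F2rl3, were too low to be tested.

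Among transcription factors and cytokine receptor chains that act on hepatic clotting genes, 4 of 10 rose and 3 fell. Cebpa, a factor of mature hepatocytes that binds C/EBP motifs, had 62.8, 67.9 and 66.4 FPKM in WT and 40.8, 38.9 and 42.3 FPKM in S100a16KO+/- hepatocytes (-0.70 ± 0.05, adjusted p = 1.13e-07). Cebpb, a C/EBP factor of the acute phase that binds the same motifs, had 64.1, 61.7 and 59.2 FPKM in WT and 81.6, 95.1 and 84.7 FPKM in S100a16KO+/- hepatocytes (0.49 ± 0.09, adjusted p = 0.00166). The 2 genes thus moved in opposite directions, each with no overlap. In the interleukin 6 pathway, Il6st, the signalling receptor chain, had 7.67, 8.77 and 8.48 FPKM in WT and 12.3, 11.3 and 13.2 FPKM in S100a16KO+/- hepatocytes (0.56 ± 0.05, adjusted p = 2.85e-06). Osmr, its partner chain in the oncostatin M receptor, had 0.140, 0.181 and 0.131 FPKM in WT and 0.326, 0.308 and 0.203 FPKM in S100a16KO+/- libraries (0.89 ± 0.22, adjusted p = 0.00938). At this low level, the part of stellate and endothelial cells, whose marker sums were also higher, was not tested. Stat3, the transcription factor downstream of both chains, had 4.53, 5.52 and 4.59 FPKM in WT and 5.63, 5.77 and 5.68 FPKM in S100a16KO+/- hepatocytes (0.22 ± 0.07, adjusted p = 0.0392). Its rise was called in 1 of 6 comparisons with a library left out, that without WT replicate 2, and the call of Osmr was lost without both libraries that stood apart.

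Other hepatocyte transcription factors were also measured. Foxa2 had 7.93, 7.98 and 7.80 FPKM in WT and 3.60, 4.78 and 4.57 FPKM in S100a16KO+/- hepatocytes, without overlap, and fell by 0.88 on the log2 scale (SE 0.11, adjusted p = 6.39e-05). Hnf4a, a nuclear receptor central to hepatocyte identity, had 48.0, 48.4 and 47.3 FPKM in WT and 49.4, 48.3 and 50.0 FPKM in S100a16KO+/- hepatocytes, which overlapped (0.03 ± 0.05, adjusted p = 0.746, 95% confidence interval from -5.55% to 10.5%). Whether any of these factors acted on the clotting genes was not tested.

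**Figure D5:**
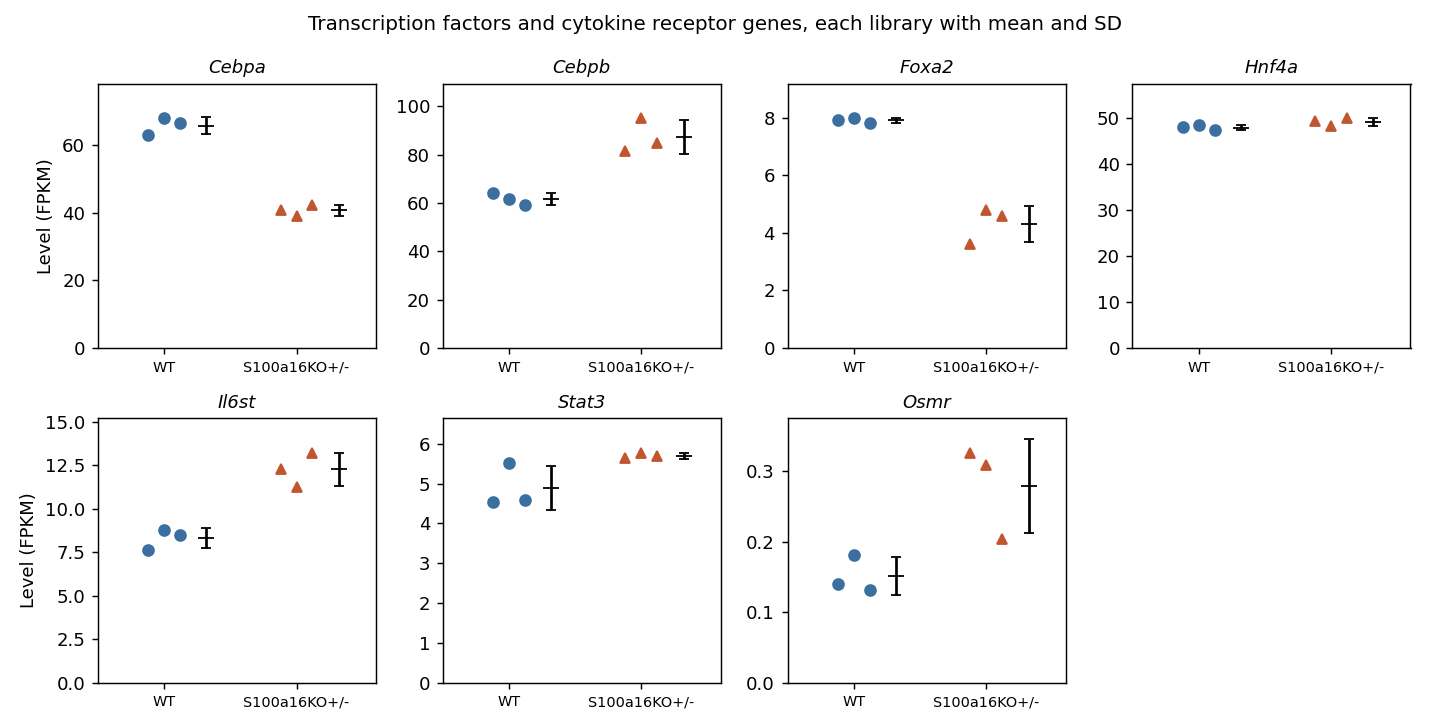
FPKM (vertical axes from 0) of transcription factor and cytokine receptor genes in each library, with WT as circles, S100a16KO+/- as triangles and bars for the mean and SD of 3 libraries. Cebpa and Foxa2 were lower and Cebpb, Il6st, Stat3 and Osmr higher in all S100a16KO+/- libraries, and Hnf4a overlapped.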

How the data were processed

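RNA-seq of primary hepatocytes was analysed in 6 libraries, 3 from alcohol-fed WT and 3 from alcohol-fed S100a16KO+/- mice, grouped by their labels. Libraries were poly(A)-selected, strand-specific and carried molecular identifiers. The authors deposited an estimated count for each gene and library, not scaled for library size, and an FPKM value, scaled by the authors for transcript length and library size. The submitters' processing notes name cutadapt 1.9, HISAT2 2.0.4, UMI-tools, StringTie 1.3.4d, DESeq2, edgeR and mm10, with no role or order. Totals were 67658095 to 71807834 per library. An excess of genes at 4 counts shows that about 4 counts stand for 1 fragment, so that even at a count of 0 as many as 3 fragments (12 counts) are possible. That limit covers counting error only.

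Estimated counts were rounded and compared with edgeR 4.0.16 in R 4.3.3 (TMM scaling, filterByExpr, robust quasi-likelihood fit, two-sided, no covariate), with Benjamini-Hochberg adjustment across all 15957 tested genes. A gene was called at an adjusted p under 0.05. The step was tested on simulated data. Means drawn in the figures carry the SD. Most fold changes are given with the SE of the fit, and some also with its 95% confidence interval. No batch is named in the labels. The genes and lists were chosen with earlier results of these data known. Named in the text are all clotting genes, S100a16, the called genes of the other pathway list and Ggcx, Vkorc1, Lman1, Mcfd2 and Hnf4a. Some items that this rule covers are not reported here. Marker genes are named only to identify their lists. Other scalings, filters, tests (DESeq2 1.42.0, limma 3.58.1), a replicate block and leaving out libraries were alternatives. Of the 33 genes, all were in GENCODE M21 (GRCm38), 29 with identical coordinates. Shared 31-base words were counted over its transcripts, and 27 genes had under 1% of theirs in other genes. Promoters are from RefSeq (GRCm38.p6). Markers listed for cholangiocytes (1 of 4 tested lower, Sox9) and neutrophils (0 of 2 called) were checked too.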

Additional observations from a re-analysis of the deposited data

How the results depend on the processing

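The number of clotting genes called (21 of 31) lay between 18 and 24 under every alternative but an adjusted p under 0.01, with 16, limma on log2(FPKM + 0.1) without a filter, with 12 (11 higher, 1 lower), and the study's criterion of an unadjusted p under 0.05 with 2-fold change, with 3. Without a filter on FPKM the same test called 1718 genes and 9 of the other pathway genes (5 higher, 4 lower), against 3643 and 20. With a mean FPKM of at least 1 limma called 2228 genes at a pseudocount of 1 and 2208 at 0.1. The cause was not tested, but fewer genes (9054) were tested in the latter pair. Upper-quartile scaling moved the median of the clotting genes to 0.28, that of all genes to 0.043 and the share of higher calls among called genes from 50.9% to 58.9%, and added F2, Plaur and Serpinc1.

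The labels do not say whether the replicate numbers pair the libraries. Same-numbered libraries correlated at -0.05, -0.05 and 0.11 in their deviations from the group means over 9209 genes. The highest correlation was 0.13, between WT replicate 1 and S100a16KO+/- replicate 2. With 3 libraries in each group, such small values cannot show whether libraries were paired. With the replicate number as a block 3082 genes and 20 clotting genes were called, without F10, and the log2 fold change of Plau was -0.0280.

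Of 607 comparisons of a tested clotting gene with its value under an alternative, 568 kept direction and call, 17 lost the call, 9 gained it and 13 changed sign. Those that changed sign were Klkb1, Serpind1, Proz and Plau, none of them called. Serpind1 and Proz were 0.0143 and 0.0133 with upper-quartile scaling, Plau was -0.0196 with voom and -0.0138 with limma on log2(FPKM + 0.1) without a filter. Ggcx, which is not among these genes, was -0.0614 without both libraries that stood apart, an alternative added after the data were seen, as was scaling without mitochondrial transcripts. With 1 library left out, Klkb1 ran from -0.0293 to 0.0620, Serpind1 from -0.0977 to 0.0266, Proz from -0.0947 to 0.0351, Plau from -0.230 to 0.224 and Ggcx from -0.0222 to 0.0941. The number of clotting genes called then ran from 18 to 22. Depth limits Vwf, Plau, Plaur, F13a1 and Plat most, which had at most 124 counts per library.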
